A study of Bos taurus with 15 samples.

Results

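The ubiquitin-proteasome genes of bovine dominant follicle (DF) oocytes were examined across the hours before ovulation. Rows of the count table were kept when their Ensembl identifier was paired, in the study's supplementary list of genes, with a symbol that starts with PSMA, PSMB, PSMC, PSMD, PSME, PSMG, UBE2, USP or FBXO, or with CUL and a digit. This gave 37 of 21218 genes, 13 of the proteasome and 24 of the ubiquitin side. The list is one of genes chosen for a difference between DF oocytes and oocytes at the end of growth. It therefore holds only some members of these families. The list was not drawn from a contrast of time points, but it was drawn partly from these same DF oocytes. The genes were also chosen with earlier results of these data known.

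Proteins to be destroyed are tagged with ubiquitin by a relay of enzymes. A conjugating enzyme (E2) carries the ubiquitin, and a ligase, such as a cullin complex with an F-box protein, brings it to the substrate. Deubiquitinases of the USP family remove the tag, and the proteasome, a barrel-shaped core particle capped by regulatory particles, unfolds and cuts what is left tagged. In oocytes this system degrades cyclin B and securin during meiosis and clears maternal proteins around fertilisation, and the oocyte draws on stored messenger RNA because transcription falls silent as growth ends.

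Each of the 15 oocytes came from a different crossbred beef heifer, mainly Limousin and Charolais crosses, whose oestrus had been synchronised with a GnRH analogue, a progesterone-releasing device and prostaglandin F2a. There were 6 oocytes from 24 h before ovulation (T1), 4 from 19 to 23 h after oestrus was detected (T2) and 5 from 2 h before ovulation (T3). The titles of the T2 samples say before ovulation instead, while their other labels and the study's methods give the time after oestrus, which is used here. By the study's methods, T2 and T3 animals were killed on the same day of the protocol, later than those of T1. A subgroup had also received a second dose of GnRH. The methods name that dose beside the time of 2 h before ovulation, but do not make clear whether T2 animals received it too. Time and treatment therefore cannot be told apart in these comparisons. The oocytes were stripped of cumulus cells, frozen and made into Smart-seq2 libraries, in which messenger RNA is caught by its poly-A tail. Fewer copies of a transcript and a smaller share of copies caught, for example through a shorter tail, therefore cannot be told apart. The oocytes came from 2 earlier animal trials, and the trial of each oocyte is not given in the sources used here.

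The study kept 11 oocytes, 5 of T1, 4 of T2 and 2 of T3, and these are the main set. Their total counts ran from 824854 to 4894970, and those of the other 4 (T1.4 plus T3.5, T3.3 and T3.1) from 175263 to 2874041. Levels are given as CPM, read counts scaled to a common library size with TMM factors and not per length, so values are compared between oocytes and not between genes. The 5 oocyte genes that could be named, NLRP5, KPNA7, FIGLA, OOSP2 and NOBOX, had counts in all 11 oocytes. The 2 cumulus and granulosa genes summed to between 103 and 295 CPM at T1, 178 and 341 CPM at T2 and 65.5 and 131 CPM at T3, nearly all from STAR, with CD44 at 0 in 7 oocytes. The 3 leukocyte genes summed to between 69.5 and 1216 CPM at T1, 20.7 and 582 CPM at T2 and 18.0 and 137 CPM at T3, with PTPRCAP at 0 in 5 oocytes. The part of other cells in the results was not tested.

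**Figure D1:**
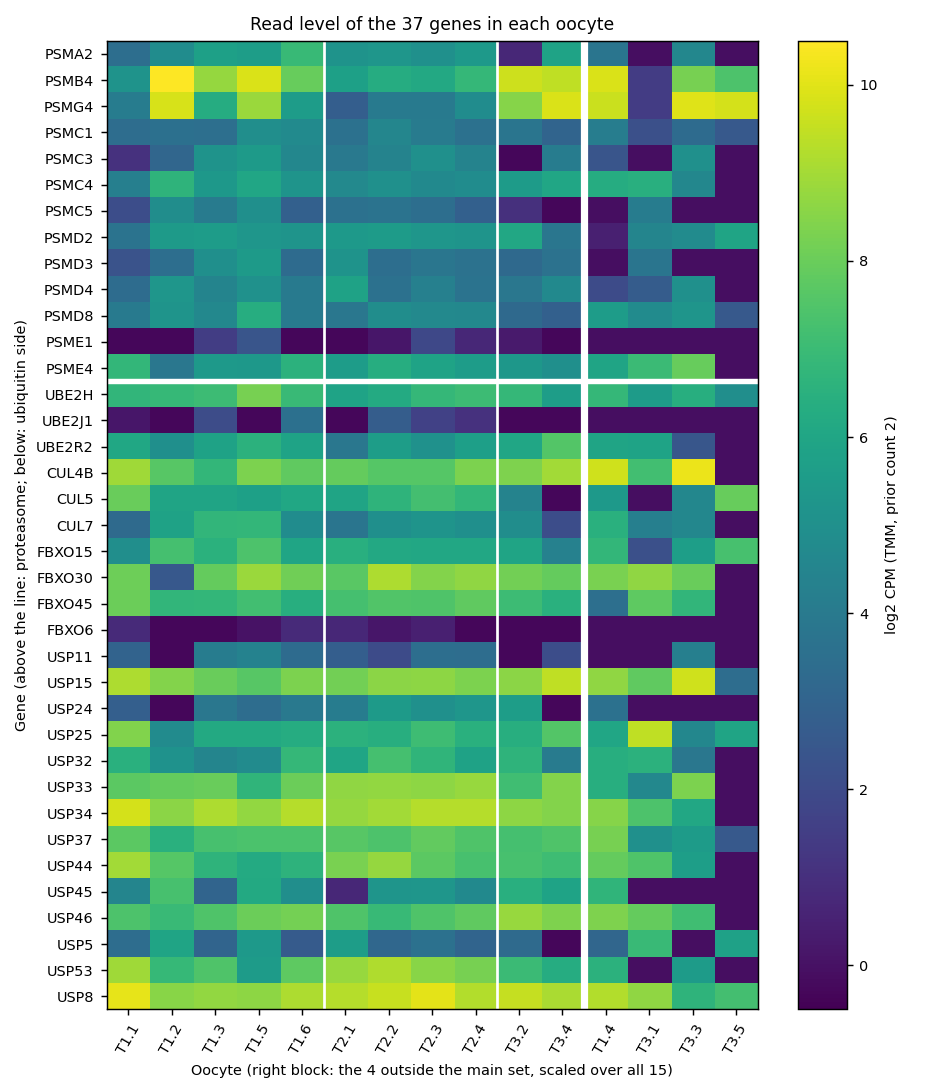
Heat map of the 37 genes (rows, proteasome above the white line and ubiquitin side below) in each of 15 oocytes (columns), coloured by log2 CPM. The columns to the right of the thick line are the 4 oocytes outside the main set, scaled together with the rest. PSMB4 and PSMG4 are bright at T3 and in part of T1 and dim at T2, while most USP rows are bright in all 11 oocytes.

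Within the proteasome, PSMB4 and PSMG4 had the lowest p-values, and both were lower at T2 than at T1 and T3. PSMB4 is a structural beta subunit of the core particle and PSMG4 is a chaperone that helps to build its alpha ring. PSMB4 was at 35.2, 1594, 437, 944 and 249 CPM in T1.1, T1.2, T1.3, T1.5 and T1.6. In T2.1 to T2.4 it was at 53.5, 79.6, 70.4 and 112 CPM, and in T3.2 and T3.4 at 813 and 694 CPM. The T2 oocytes lay together, both T3 oocytes lay above all of them, and T1 was spread over both ranges because T1.1 was below every T2 oocyte while the other 4 were above.

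PSMG4 was at 16.8, 916, 78.1, 461 and 47.3 CPM in the T1 oocytes in the same order. It was at 6.04, 15.7, 15.4 and 27.8 CPM in T2.1 to T2.4 and at 366 and 942 CPM in T3.2 and T3.4. T1.1 lay inside the T2 range, and the T3 oocytes were above every T2 oocyte. In edgeR's quasi-likelihood fit PSMB4 had a log2 fold change of -3.04 ± 0.78 (SE) at T2 against T1, with an adjusted p of 0.135, and of 3.25 ± 0.88 at T3 against T2, with an adjusted p of 0.0827. For PSMG4 the values were -4.20 ± 1.02 with an adjusted p of 0.132 and 5.31 ± 1.15 with an adjusted p of 0.0625. Neither gene passed the adjusted p of 0.05 in this fit, and the comparisons share the T2 oocytes.

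The call on both genes depended on the test and on single oocytes. Both were called at T2 against T1 and at T3 against T2 by edgeR's likelihood ratio test, by DESeq2 and without the filter on low counts. With T1.1 left out, the quasi-likelihood test called both in both comparisons, and the T2 against T1 log2 fold changes were -3.35 for PSMB4 and -4.51 for PSMG4. Without T1.2 they were -2.26 and -3.04. The quasi-likelihood test also called both at T3 against T2 without T1.2. The share of all genes called in these left-out fits is not given here, so these calls have no background beside them. With T3.2 as the lone T3 oocyte, the PSMG4 log2 fold change at T3 against T2 was 4.39. At T3 against T1 the log2 fold changes of PSMB4 and PSMG4 were 0.21 ± 0.86 and 1.11 ± 1.02, with adjusted p of 0.984 and 0.819.

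The oocytes outside the main set did not all lie with their group. T1.4 had 936 CPM of PSMB4 and 787 CPM of PSMG4, inside the range of the other T1 oocytes. T3.3 and T3.5 had 301 and 173 CPM of PSMB4 and 1003 and 877 CPM of PSMG4, all above every T2 oocyte, but T3.1 had 1 count of each gene. With all 15 oocytes the log2 fold change at T3 against T2 was 2.32 for PSMB4 and 5.29 for PSMG4, and at T2 against T1 it was -3.09 and -4.49.

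**Figure D2:**
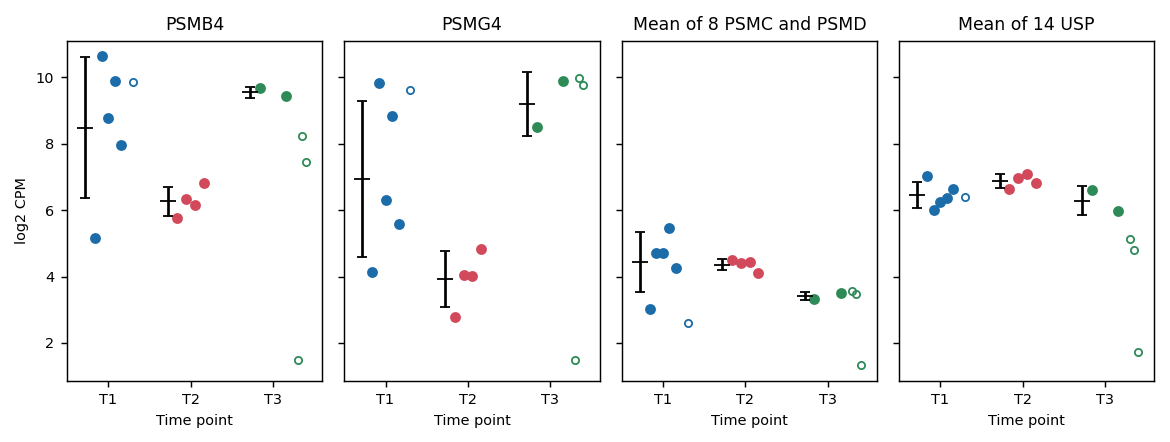
Levels in log2 CPM of PSMB4 and PSMG4, the mean of the 8 PSMC and PSMD genes and the mean of the 14 USP genes, by time point. Filled points are the 11 oocytes of the main set with their mean and SD in black, and open points are the other 4. PSMB4 and PSMG4 are lowest at T2 apart from T1.1 and T3.1, the PSMC and PSMD mean is lower at T3 than at T2, and the USP mean spans less than the other panels in the main set.

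The 2 genes made up a changing part of the reads on the proteasome genes that could be named. Of the counts on the 13 proteasome genes, PSMB4 and PSMG4 together took 58.1% ± 26.5 (SD, n = 5) at T1, 25.4% ± 8.34 (n = 4) at T2 and 86.5% ± 1.45 (n = 2) at T3. The T2 oocytes ran from 17% to 37%, both T3 oocytes were over 85%, and T1 ran from 21.2% in T1.1 to 88.8% in T1.2. The 13 genes together took 0.117% ± 0.0678 of all counts at T1, 0.0401% ± 0.00198 at T2 and 0.139% ± 0.0327 at T3. The 24 ubiquitin-side genes took 0.395% ± 0.140, 0.492% ± 0.0528 and 0.339% ± 0.0139.

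**Figure D3:**
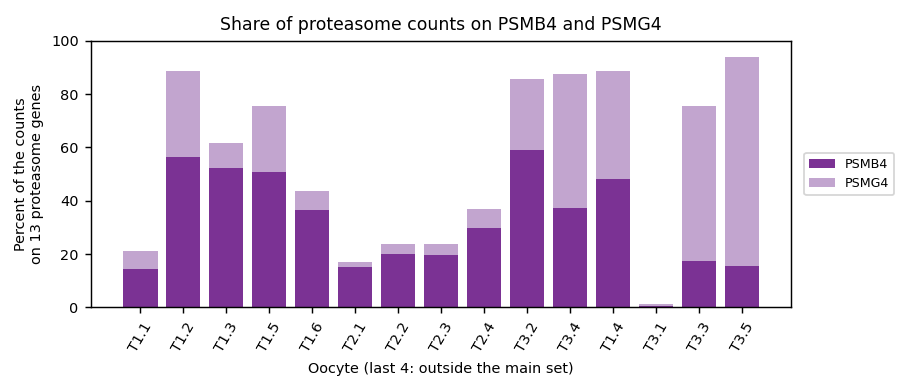
Percent of the counts on the 13 proteasome genes that fell on PSMB4 (dark) and PSMG4 (light) in each oocyte. The T2 bars reach 17% to 37% and the bars of T3.2 and T3.4 reach 85.5% and 87.5%, while T3.1, outside the main set, stands at 1.198%.

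Of the 8 genes of the regulatory particle, 0 were called by the quasi-likelihood test, and 2 had an unadjusted p under 0.05 in a comparison, PSMC5 and PSMD8. Its ring of ATPases, which unfold the substrate, was represented by PSMC1, PSMC3, PSMC4 and PSMC5. Its non-ATPase subunits were PSMD2, a scaffold that docks ubiquitin-like proteins, PSMD4, a receptor for ubiquitin chains, and PSMD3 and PSMD8, parts of the lid. The mean of these 8 genes was 4.43 ± 0.90 log2 CPM (SD, n = 5) at T1, 4.36 ± 0.17 (n = 4) at T2 and 3.41 ± 0.12 (n = 2) at T3. T1 and T2 overlapped, and both T3 oocytes, at 3.32 and 3.49, were below every T2 oocyte and above T1.1, which was at 3.02.

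PSMC5 had the largest share of the difference between T3 and T2. It was at 3.49, 29.0, 16.1, 30.7 and 6.50 CPM in the T1 oocytes, at 11.2, 12.1, 10.3 and 6.51 CPM in the T2 oocytes, and at 1.25 and 0 CPM in T3.2 and T3.4. All T3 values were below all others, and they rest on 3 counts against 83 at T2 and 275 at T1. The T2 level was 15.6 times the T3 level, with a 95% interval for counting error of 5.17 to 77.3, and the T1 level 29.7 times, with an interval of 10.1 to 145. The quasi-likelihood p was 0.019 at T3 against T2 and 0.00765 at T3 against T1, with adjusted p of 0.196 and 0.390, and DESeq2 called both. The difference rests on the main set, since T1.4, T3.3 and T3.5 were also at 0 CPM and T3.1 was at 16.5 CPM.

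PSMD8 was at 14.9, 35.7, 24.1, 80.6 and 15.8 CPM in the T1 oocytes, at 13.8, 28.5, 25.2 and 23.9 CPM in the T2 oocytes, and at 8.78 and 6.59 CPM in T3.2 and T3.4. These T3 oocytes were again the lowest of the main set. Outside it, PSMD8 was at 27.4 and 36.5 CPM in T3.1 and T3.3 and at 4.95 CPM in T3.5. The log2 fold change at T3 against T1 was -2.15 ± 0.92, with an adjusted p of 0.512, and it was -1.55 without T1.5 and -1.09 with all 15 oocytes. Other regulatory genes differed less or more unevenly. PSMD2 had a log2 fold change of 0.00 ± 0.75 at T3 against T2 and PSMD4 one of -0.31 ± 0.91. PSMC1, PSMC3 and PSMD3 had values of -0.57 ± 0.93, -1.39 ± 1.41 and -0.74 ± 1.06, with PSMC3 at 0 in T3.2. PSMC4 went the other way, at 25.0 to 32.1 CPM in the T2 oocytes and 46.0 and 62.8 CPM in T3.2 and T3.4. Its log2 fold change was 0.97 ± 0.68, with an adjusted p that did not pass. Outside the main set it was at 86.0, 22.8 and 0 CPM in T3.1, T3.3 and T3.5.

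PSMA2, an alpha subunit of the core particle, had 32.0 to 41.2 CPM at T2 but was split at T3, with 0.837 CPM in T3.2 and 57.6 CPM in T3.4. PSME4, which encodes the large activator PA200 that caps the core, had a log2 fold change of -0.75 ± 0.76 at T3 against T2. PSME1, a subunit of the interferon-inducible activator PA28, had the fewest reads of the proteasome genes and did not pass the filter. It was at 0, 0, 1.98, 4.54 and 0 CPM in the T1 oocytes, at 0, 0.328, 2.86 and 0.868 CPM in the T2 oocytes, and at 0.418 and 0 CPM in T3.2 and T3.4, so no difference was detectable at this depth.

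Deubiquitinases were the largest group. The mean of the 14 USP genes was 6.46 ± 0.40 log2 CPM at T1, 6.88 ± 0.20 at T2 and 6.29 ± 0.44 at T3, and the T1 range of 5.99 to 7.04 overlapped that of both other time points. USP8, which acts on receptors at endosomes, had the most reads of the ubiquitin-side genes. It was at 1079, 377, 417, 401 and 565 CPM in the T1 oocytes, at 626, 753, 1044 and 606 CPM in the T2 oocytes, and at 746 and 555 CPM in T3.2 and T3.4. All 3 time points overlapped, and none of its log2 fold changes exceeded its SE.

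USP33, a deubiquitinase that acts on centrosome and signalling proteins, was the USP gene with the clearest T2 level. It was at 210, 237, 256, 104 and 262 CPM in the T1 oocytes, at 406, 418, 394 and 449 CPM in the T2 oocytes, and at 138 and 350 CPM in T3.2 and T3.4. The T2 oocytes were within a narrow range above every oocyte of both other time points. The log2 fold change at T2 against T1 was 0.96 ± 0.40, with an unadjusted quasi-likelihood p of 0.0288 and an adjusted p of 0.329.

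USP53, a member of the family first described as lacking protease activity, was at 485, 115, 176, 45.2 and 219 CPM in the T1 oocytes. It was at 449, 581, 371 and 300 CPM at T2, and at 128 and 77.8 CPM at T3. T3 lay below T2 and inside T1, and the log2 fold change at T3 against T2 was -2.05 ± 0.78, with an adjusted p of 0.192. USP46, which works with WD-repeat cofactors, was at 172, 122, 177, 260 and 296 CPM in the T1 oocytes. It was at 179, 119, 176 and 226 CPM at T2 and at 444 and 329 CPM at T3, above every other oocyte of the main set. Outside the main set, T1.4 was at 332 CPM and T3.1, T3.3 and T3.5 were at 241, 137 and 0 CPM. The log2 fold change of USP46 at T3 against T2 was 1.14 ± 0.49, with an adjusted p of 0.239, and it was 0.41 with all 15 oocytes.

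Among the other USP genes, 4 moved by under 1 log2 unit in every comparison with counts in all 11 oocytes and medians over 150 CPM, namely USP15, USP34, USP37 and USP44. USP25 and USP32 also stayed under 1 log2 unit, at medians of 84.2 and 61.2 CPM. USP5, which recycles unanchored ubiquitin chains, USP11, USP24 and USP45 had medians of 9.20, 7.30, 14.9 and 37.03 CPM. USP24 was at 0 in T1.2 and T3.4 and between 16.4 and 44.6 CPM at T2, above every T1 oocyte. None of these 10 genes had an unadjusted p under 0.05.

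Of the cullins, the scaffolds of ligase complexes, CUL5 differed most. CUL5 pairs with elongins and SOCS-box receptors. It was at 253, 60.7, 59.5, 53.8 and 65.0 CPM in the T1 oocytes, at 59.5, 99.3, 146 and 108 CPM in the T2 oocytes, and at 20.9 and 0 CPM in T3.2 and T3.4. Both T3 oocytes were below all 9 others, and T1.1 was the highest. The log2 fold change was -3.30 ± 1.21 at T3 against T2 and -3.23 ± 1.19 at T3 against T1, with adjusted p of 0.180 and 0.451. Without T3.4 the values were -2.39 and -2.27, and without T1.1 that against T1 was -2.50. DESeq2 called both. With all 15 oocytes the values were -0.88 and -0.65, with T3.1 at 0 CPM and T3.5 at 243 CPM. CUL4B, the scaffold of ligases with DDB1, was at 191 to 319 CPM at T2 and at 333 and 495 CPM in T3.2 and T3.4, a log2 fold change of 0.82 ± 0.55. Outside the main set it was at 143, 1154 and 0 CPM in T3.1, T3.3 and T3.5. CUL7, scaffold of an atypical complex, had 12.9 to 35.5 CPM at T2 and 3.51 and 28.9 CPM in the T3 oocytes.

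UBE2R2, a conjugating enzyme that extends chains with cullin ligases, was at 65.4, 30.3, 55.8, 94.5 and 58.5 CPM in the T1 oocytes. It was at 13.8, 48.2, 32.6 and 50.8 CPM at T2, and at 63.2 and 185 CPM at T3. T3 was above T2 and overlapped T1. The log2 fold change at T3 against T2 was 1.76 ± 0.66, with an adjusted p of 0.186, and it was 0.71 without T3.4 and 0.79 with all 15 oocytes. UBE2H, an E2 of the CTLH ligase complex, had 58.6 to 132 CPM at T2 and 48.8 to 113 CPM at T3. UBE2J1, an E2 of the endoplasmic reticulum, reached 11.1 CPM at T1 and 5.90 CPM at T2 and had no count in T3.2 or T3.4. A floor of 3 counts over the raw total of the T3 group was 0.550 CPM. The mean of UBE2J1 was 4.31 times this floor at T2 and 5.399 times at T1. The floor left out the TMM factors of T3.2 and T3.4, 0.845 and 0.871. On the scale of the means it would be higher and the ratios smaller, so they are not strict bounds. These ratios also rested on single oocytes, since they were 2.18 without T2.2 and 1.69 without T1.6. Of the other oocytes, 1 of T2 and 2 of T1 were also at 0.

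F-box proteins choose the substrates of cullin ligases. FBXO15, known from pluripotent cells, and FBXO45 were lower in T3.2 and T3.4 than in every T2 oocyte, with log2 fold changes of -0.86 ± 0.72 and -0.75 ± 0.55. Outside the main set, T3.1, T3.3 and T3.5 had 3.66, 50.2 and 158 CPM of FBXO15, the last above every T2 oocyte. They had 218, 105 and 0 CPM of FBXO45, the first inside the T2 range. In the main set FBXO30 was over 200 CPM in all T2 and T3 oocytes and ran from 4.91 to 461 CPM at T1. Outside it, FBXO30 was at 402, 251 and 0 CPM in T3.1, T3.3 and T3.5. FBXO6, which recognises glycoproteins, had the fewest reads of the ubiquitin side and did not pass the filter. It was at 0.952, 0, 0, 0.227 and 0.928 CPM in the T1 oocytes, at 0.862, 0.328, 0.572 and 0 CPM in the T2 oocytes, and at 0 in both T3 oocytes, and no difference was detectable.

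**Figure D4:**
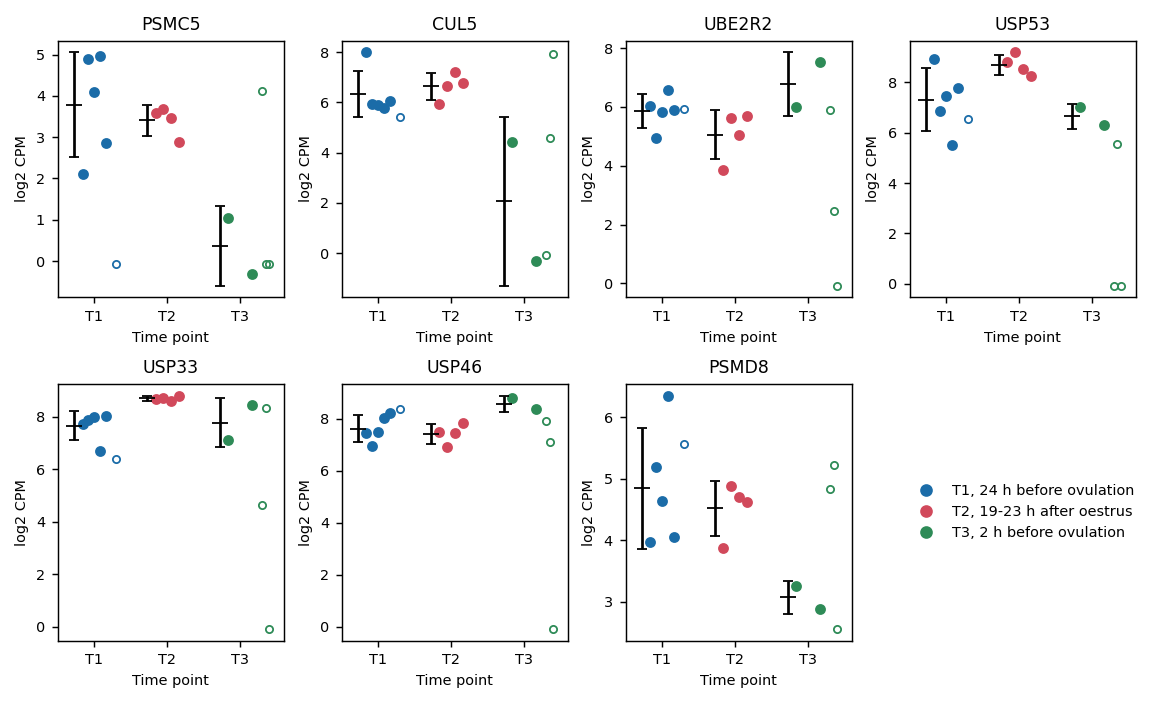
Levels in log2 CPM of the other 7 genes with an unadjusted p under 0.05 in a comparison, by time point. Filled points are the main set with mean and SD in black, and open points are the other 4 oocytes. In the main set PSMC5, PSMD8 and CUL5 are lowest at T3, and USP33 is highest and tightest at T2. Among the open points, T3.1 for PSMC5, T3.3 for PSMD8 and T3.5 for CUL5 lie above every T2 oocyte.

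Over the whole set, 35 of 37 genes were tested, 12 of the proteasome and 23 of the ubiquitin side, and the quasi-likelihood test with Benjamini-Hochberg adjustment called 0 of them in each of the 3 comparisons, as it called 0 of the 10198 genes tested, a background of 0%. At T2 against T1, 1 gene was higher and 2 were lower at an unadjusted p under 0.05, beside 2.77% and 9.41% of all genes tested. At T3 against T2 the counts were 4 and 3, beside 9.03% and 8.24%. At T3 against T1 they were 0 and 3, beside 1.62% and 7.47%. The likelihood ratio test called 2, 2 and 0 of the genes in these comparisons, beside 3.54%, 6.87% and 1.36% of all genes. DESeq2 called 2, 4 and 2 of 37, beside 3.27%, 6.37% and 2.44%.

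Oocytes of T2 and T1 did not overlap in 2 of the genes that were higher, USP24 and USP33, beside 1.94% of all genes, and in 0 that were lower, beside 2.3%. Without T1.1 the count in both directions was 10, beside 14.6% of all genes. For T3 and T2 the counts were 7 higher and 9 lower, beside 16.3% and 18.7%. For T3 and T1 they were 1 higher, USP46, and 3 lower, CUL5, PSMC5 and PSMD8, beside 3.79% and 5.18%. With all 15 oocytes these counts in both directions were 1, 4 and 0, beside 3.45%, 9.62% and 0.902% of all genes.

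**Figure D5:**
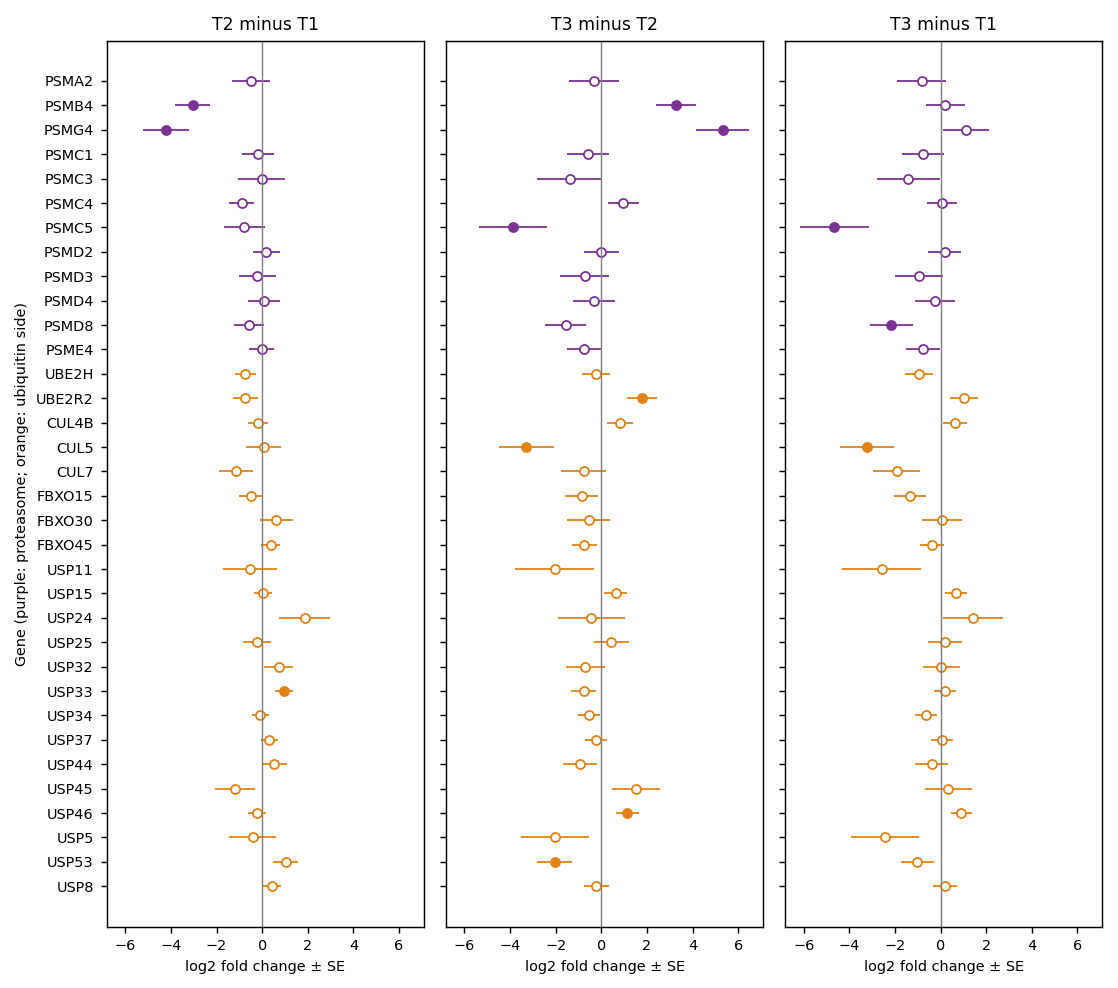
Log2 fold change from the quasi-likelihood fit, with an SE derived from its F statistic, for 34 genes in the 3 comparisons, which share oocytes. UBE2J1 is left out because it had no count in T3.2 or T3.4. Purple marks the proteasome and orange the ubiquitin side, and filled points have an unadjusted p under 0.05. PSMB4 and PSMG4 lie far to the left at T2 minus T1 and far to the right at T3 minus T2, away from the other proteasome genes.

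As lists, the proteasome and the ubiquitin-side genes each overlapped between all time points. The mean of the 13 proteasome genes was 4.80 ± 0.92 log2 CPM at T1, 4.37 ± 0.11 at T2 and 4.19 ± 0.37 at T3, and that of the 24 ubiquitin-side genes 6.04 ± 0.36, 6.28 ± 0.26 and 5.61 ± 0.52. Over all genes tested the means were 4.29, 4.25 and 4.06. The proteasome difference at T3 against T2 was -0.18, and it was 0.13 with counts thinned to 1 depth and 0.08 without T3.2. Without PSMB4 and PSMG4, a choice made after their values were seen, the proteasome mean was 4.27, 4.23 and 3.24. The proteasome mean less the ubiquitin-side mean within an oocyte was -1.24 ± 1.13, -1.92 ± 0.16 and -1.42 ± 0.89, and the T1 range, from -3.06 in T1.1 to -0.34, held all oocytes of T2 and T3. At T3 against T2 this difference was 0.50 by means but -0.41 by medians, -0.31 without PSMB4 and PSMG4 and -0.13 without T3.4, so its direction rested on the summary, on these 2 genes and on 1 oocyte.

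The median log2 fold change at T2 against T1 was -0.35 for the proteasome genes, -0.08 for the ubiquitin side and -0.20 for all genes tested. At T3 against T2 the medians were -0.45, -0.56 and -0.10, and at T3 against T1 they were -0.77, 0.04 and -0.21. They were the same with UBE2J1 set to its ratio to the floor. At T3 against T2, 8 of 12 proteasome genes and 17 of 23 ubiquitin-side genes had a negative value, beside 5389 of all 10198 genes tested.

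A further 68 genes of the ubiquitin system could be named, of which 64 were tested. At an unadjusted p under 0.05, 2 were higher and 6 lower at T2 against T1, 7 and 10 at T3 against T2, and 0 and 12 at T3 against T1. These were 3.13% and 9.38% of the 64 genes, then 10.9% and 15.6%, then 0% and 18.8%, beside the shares of all genes given above. At T2 against T1 they were near those shares. The quasi-likelihood test called none after adjustment. RPS27A, RNF181 and COPS9 were lower at T2 than at T1 and higher at T3 than at T2. RPS27A encodes ubiquitin fused to a ribosomal protein, RNF181 is a RING ligase and COPS9 is a subunit of the COP9 signalosome, which acts on cullins.

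RNF181 was at 20.0, 348, 56.1, 195 and 20.4 CPM in the T1 oocytes, at 8.62, 13.4, 18.3 and 16.9 CPM at T2, and at 255 and 206 CPM at T3. Both of these T3 oocytes were above every T2 oocyte, and T1.1 and T1.6 were the T1 oocytes nearest to T2. Outside the main set RNF181 was at 18.3 CPM in T3.1, level with the highest T2 oocyte, and at 155 and 69.3 CPM in T3.3 and T3.5. Its log2 fold change was -3.15 ± 0.81 at T2 against T1 and 3.99 ± 0.92 at T3 against T2, with adjusted p of 0.135 and 0.0625. COPS9 had values of -2.97 ± 0.81 and 2.72 ± 0.91 and RPS27A of -1.55 ± 0.50 and 2.15 ± 0.59. Outside the main set, T3.1 had 260 CPM of RPS27A, below every T2 oocyte, and 121 CPM of COPS9, above every T2 oocyte. T3.3 and T3.5 were above every T2 oocyte for both genes.

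The ligases MARCHF7, ZNRF2 and DTX2 had other orders. MARCHF7 was at 511 to 1056 CPM at T2 and at 82.9 to 560 CPM at T1, a log2 fold change of 1.68 ± 0.52. ZNRF2 was at 390 to 487 CPM at T2 and at 141 and 51.4 CPM in T3.2 and T3.4, a log2 fold change of -2.16 ± 0.60. Outside the main set it was at 1641 CPM in T3.1, above every T2 oocyte, and at 68.4 and 0 CPM in T3.3 and T3.5. DTX2 was at 4.18 and 3.95 CPM at T3 and at 12.7 to 58.4 CPM at T1, a log2 fold change of -3.16 ± 0.99. KEAP1, the substrate adaptor of a cullin ligase in the oxidative stress response, had no count at T3. Its mean was 34.5 times the T3 floor at T2 and 11.2 times at T1, where it was at 0 in 2 oocytes. The ratio at T2 was 19.4 without T2.1. As for UBE2J1, the floor left out TMM factors, so these ratios are not strict bounds.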

How the data were processed

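Raw read counts per Ensembl gene of 15 DF oocytes were used as the authors deposited them, after trimming with Trim Galore (version 0.6.6 per the labels), HISAT2 mapping to ARS-UCD1.2 and SeqMonk counting. The annotation release, strand setting and duplicate handling are not given in the sources used here. Symbols came from the study's supplementary list, which pairs 1741 of 1829 identifiers, because the other gene table matched 0 of them. The marker lists matched 5 of 15 oocyte, 2 of 24 cumulus and granulosa, 3 of 20 leukocyte and 0 of 8 erythrocyte genes, under the minimum of 80%, so they are given as values only.

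The quasi-likelihood test of edgeR (4.0.16, under R 4.3.3) was run on the 11 oocytes that the study kept, in 1 fit, with filterByExpr, TMM factors and Benjamini-Hochberg adjustment over all genes tested. A call needed an adjusted p under 0.05 and an absolute log2 fold change over 1.5. Each oocyte came from another animal, and p-values measure the spread between oocytes. The SE of a log2 fold change was its absolute value divided by the square root of the test's F statistic. Levels used log2 CPM with a prior count of 2. Alternatives were DESeq2 (version 1.42.0), the likelihood ratio test, RLE factors, library size alone, no filter on low counts, no fold threshold, prior counts of 0.5 and 5, thinned counts, medians, all 15 oocytes, each oocyte left out and a replicate block. The one without PSMB4 and PSMG4 was added after seeing the data. The quasi-likelihood procedure was also run on simulated counts with known changes, for comparisons against T1 only. This checked the code, and the share of real changes that the test would miss in these oocytes is not given here.

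Values in every oocyte are given for genes with an unadjusted p under 0.05 in a comparison and for those with the most and fewest reads on each side. Of the further ubiquitin genes, those with an unadjusted p under 0.01 are named, except 1 that is not reported here. The genes, lists and naming rules were chosen with earlier results of these data known. Intervals and floors cover counting error only, and floors were taken on raw totals without TMM factors.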

Additional observations from a re-analysis of the deposited data

Results flagged for a closer look

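In 11 of 80 groups of 4 or 5 oocytes examined, the most extreme oocyte stood apart from the rest by more than Dixon's limit at the 95% level, where chance gives about 1 in 20 groups, or 4. All values are log2 CPM of 1 gene in 1 oocyte unless stated.

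At T1, T1.1 was high for CUL5 at 7.99, with the others between 5.77 and 6.04, and low for PSMD2 at 3.69, with the others between 5.21 and 5.60. T1.2 was low for FBXO30 at 2.51, with the others between 7.92 and 8.85, and had no count of USP11 and USP24, which is -0.31 on this scale, with the others between 3.02 and 4.36 and between 2.84 and 3.97. T1.5 was high for UBE2H at 8.25, with the others between 6.73 and 7.05, and low for USP33 at 6.71, with the others between 7.72 and 8.04.

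At T2, T2.1 was the oocyte that stood apart in every case. It was low for CUL7 at 3.78, with the others between 4.96 and 5.18, and for USP45 at 0.74, with the others between 4.70 and 5.27. It was high for FBXO15 at 6.43, with the others between 6.08 and 6.12. Its proteasome mean less its ubiquitin-side mean was -1.68, with the others between -2.03 and -1.98.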

How the results depend on the processing

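Against 0 genes called by the quasi-likelihood test in each comparison, the likelihood ratio test called 2 at T2 against T1 and 2 at T3 against T2, DESeq2 called 2 and 4, and 2 at T3 against T1, and the fit with no filter on low counts called 2 and 2, beside 1.63% and 2.59% of all genes. With DESeq2, 5 genes had an unadjusted p under 0.05 at T3 against T1, beside 1511 of all 14321 genes. This was in place of 3, beside 927 of 10198. With all 15 oocytes, 3 genes had one at T3 against T2, beside 1146 of 9058, in place of 7, beside 1761 of 10198. The genes whose oocytes did not overlap then numbered 1 in place of 2 at T2 against T1, 4 in place of 16 at T3 against T2 and 0 in place of 4 at T3 against T1. Library size alone also gave 1 at T2 against T1, beside 4.3% of all genes. At T3 against T2 it gave 22 in place of 16, beside 37.8% of all genes in place of 35.0%. At T3 against T1 it gave 3 in place of 4, beside 8.33% in place of 8.97%. The ubiquitin-side difference of -0.68 at T3 against T2 was -1.75 with all 15 oocytes and -0.27 by medians, and that of -0.43 at T3 against T1 was -1.50 with all 15. The proteasome difference at T3 against T2 was -0.99 without PSMB4 and PSMG4, in place of -0.18, and the proteasome less ubiquitin-side difference was -0.41 by medians, in place of 0.50. The cause was not tested.

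For the fits with single oocytes left out, the shares of all genes called or with an unadjusted p under 0.05 are not given here. The counts of such genes therefore have no background beside them. When single oocytes were left out, the genes called ranged from 0 to 2 at T2 against T1 and from 0 to 2 at T3 against T2. Those with an unadjusted p under 0.05 ranged from 2 to 7, from 5 to 11 and from 2 to 7 at T2 against T1, T3 against T2 and T3 against T1. Those whose oocytes did not overlap ranged from 2 to 10, from 16 to 28 and from 4 to 16, beside 4.25% to 14.6%, 35.0% to 66.4% and 8.97% to 33.7% of all genes. The ubiquitin-side difference ranged from -1.05 to -0.31 at T3 against T2 and from -0.80 to -0.064 at T3 against T1. The proteasome difference at T2 against T1 ranged from -0.80 without T1.1 to -0.18 without T1.5, and at T3 against T2 from -0.44 to 0.08. The proteasome less ubiquitin-side difference changed sign, from -0.81 without T3.4 to 0.45 without T3.2 at T3 against T1 and from -0.13 to 1.13 at T3 against T2. The high counts came without T1.1 at T2 against T1 and without T3.2 in both comparisons with T3.

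Oocytes with the same replicate number come from different animals, and their deviations correlated between -0.0164 and 0.140, so they were not treated as pairs. With the replicate number as a block, 0 genes were called in each comparison and 2, 5 and 2 had an unadjusted p under 0.05. The share of all genes with the block is not given here. Library size alone moved the median of all genes by 0.10, -0.31 and -0.21 on the log2 scale at T2 against T1, T3 against T2 and T3 against T1. Only 2 oocytes stand for T3, and genes under about 10 CPM rest on few counts in the shallower oocytes.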
